A study of Zea mays with 10 samples.

Results

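The small RNA reads described here came from the end of the short arm of maize (Zea mays) chromosome 2, taken as every 100 kb window that starts between 0 and 40 Mb. Membership was set by position, but the segment was chosen with earlier results of these data known. Its windows number 400 of the 20584 windows with reads in any library. Each of the 400 held reads in all 10 libraries. The study asks how copy number alterations change small RNA dosage, and its lines take their names from alleles of p1. That gene, a Myb-type regulator of red flavonoid pigments in the ear, lies on chromosome 1, so the chromosome 2 windows are on another chromosome than the allele that names each line. The lines were id4 (P1-wwid4), 9d9a (P1-vv9d9a), id1 (P1-wwid1), 714 (P1-ww714), 714H, which has the 714 allele over B73 (P1-ww714/B73), and the inbred B73. All libraries were made from 14-day-old seedlings grown in a growth chamber. Leaf was sequenced in the 6 lines and root in 4 of them (id4, 9d9a, id1 and B73), with 1 library per line and tissue. Libraries titled leaf carry the tissue label seedling, and window counts carry no marker genes against which the tissue could be checked. The labels do not say how many plants went into a library, how the lines were derived, or how often each was crossed to B73.

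Most plant small RNAs are short interfering RNAs cut by Dicer-like enzymes from double-stranded RNA that RNA polymerase IV and an RNA-dependent RNA polymerase make from transposons and other repeats, and they guide DNA methylation to matching sequences. MicroRNAs, which come from hairpin transcripts and repress messenger RNAs, are made at far fewer loci. In maize the interfering RNAs are concentrated near genes, and so in the chromosome arms more than around centromeres. The short arm of chromosome 2 is known for liguleless1, which is needed to form the boundary between leaf blade and sheath, and for b1, a pigment regulator whose heritable silencing (paramutation) needs the RNA-dependent RNA polymerase MOP1. Neither gene was placed in a window here, because the sources used here do not name the genome build behind the windows.

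The windows were well covered. The 10 libraries held 8472011 to 18396214 reads in all, of which 238703 to 586320 fell in the 40 Mb. The median window of the 40 Mb held 420.5 to 1038.5 reads, a counting error (SE) of 4.88% to 3.10%, which leaves out any spread from amplification. Its level was 41.0 to 59.0 counts per 1000000 reads (CPM), against 26.0 to 27.9 CPM for the median window of the genome. Reads per window were therefore denser here than in the median window of the genome in all 10 libraries.

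A smaller share of the reads came from these windows in id4 than in any other line. In leaf the 40 Mb took 2.53% of reads in id4, 3.07% in 9d9a, 3.19% in id1, 3.28% in 714, 3.27% in 714H and 3.19% in B73. In root it took 2.48% in id4, 3.04% in 9d9a, 3.23% in id1 and 3.22% in B73. The id4 libraries averaged 2.51% ± 0.0359 (SD, n = 2) and the libraries of 9d9a, id1 and B73 averaged 3.15% ± 0.0808 (SD, n = 6), a difference of -0.649 percentage points. Each n counts leaf and root of a line separately, so these SDs mix line and tissue and are not from independent replicates. The lowest of the other 6 libraries, 9d9a root at 3.04%, was above both id4 libraries. An exact two-sided permutation test with lines exchanged within a tissue gave p = 0.0625, which is the smallest p that its 16 placements allow. It exchanged lines in leaf and in root separately, although both libraries of a line belong together. Moving whole lines would allow fewer placements and could not give so small a p. The segment was also chosen with earlier results known, so no conclusion is drawn from this p. In summed level, the windows held 25313 CPM in id4 leaf and 31872 CPM in B73 leaf, which is 20.6% lower in id4, and 24806 CPM in id4 root and 32186 CPM in B73 root, which is 22.9% lower. Seedling tissue was sequenced in bulk, so fewer cells that make these RNAs and less RNA per cell cannot be told apart. Neither can be told apart from a poorer match of id4 reads to the reference.

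**Figure D1:**
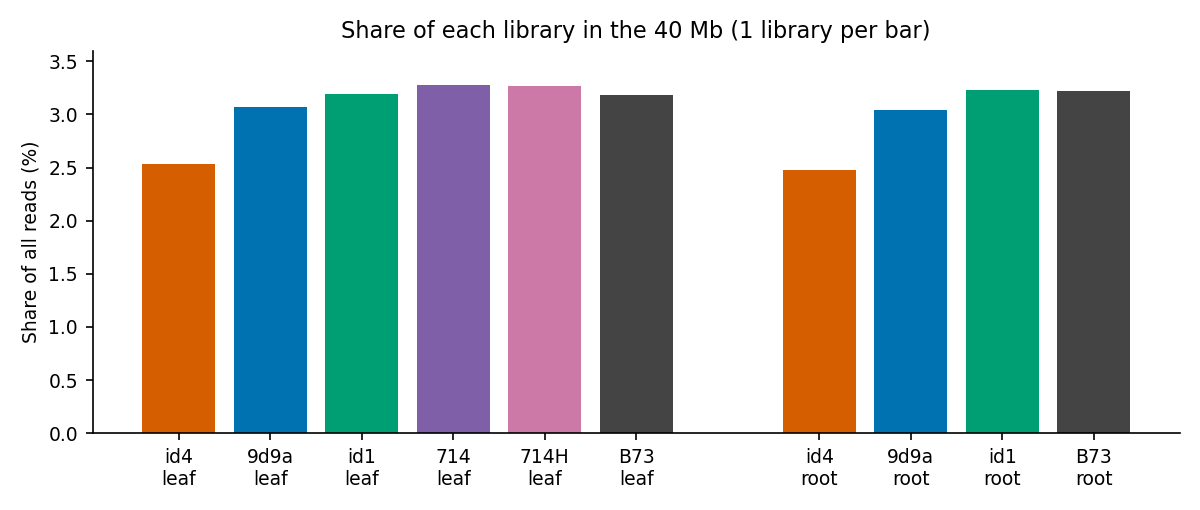
Share of all reads (%) that fell in the 40 Mb of chromosome 2, with 1 bar per library and leaf at left. The id4 bars stand at 2.53% in leaf and 2.48% in root, and the other 8 libraries lie between 3.04% and 3.28%.

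The deficit in id4 was spread over many windows and not carried by a few. With edgeR's quasi-likelihood test over the 8 libraries of id4, 9d9a, id1 and B73, with tissue as a covariate and Benjamini-Hochberg adjustment at 0.05, 154 of the 399 tested windows fell in id4 against B73 and 5 rose. That is 38.6% lower, where 3.09% of the 20386 windows tested over the genome were lower, and 1.42% of them were higher. On the rest of chromosome 2 the lower share was 0.869%. The remaining window, which starts at 34.8 Mb and had 3 to 8 reads per library, did not pass the filter on low counts. In the 40 Mb, 310 of 399 windows had a log2 change below 0, with a median of -0.31, against a median of 0.00 over all windows tested. All 159 called windows had the same direction in leaf and in root. The test takes leaf and root as the libraries of a line, so this agreement is largely a condition of being called.

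The 154 windows that fell had a median log2 change of -0.81, a range of -1.53 to -0.35, and 46 of them fell by more than 2-fold. None fell by more than 4-fold, so small RNA remained in every one. The first started at 6.4 Mb and the last at 39.2 Mb, and no gap between neighbouring called windows was wider than 1.2 Mb. None lay in the first 5 Mb. Together they held 8785 CPM in id4 leaf and 14417 CPM in B73 leaf, which leaves 60.9% of the B73 level. In root they held 8649 CPM in id4 and 15433 CPM in B73, which leaves 56.0%. The summed difference over these windows was -5632 CPM in leaf and -6784 CPM in root, out of -6559 and -7381 CPM over all 400.

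**Figure D2:**
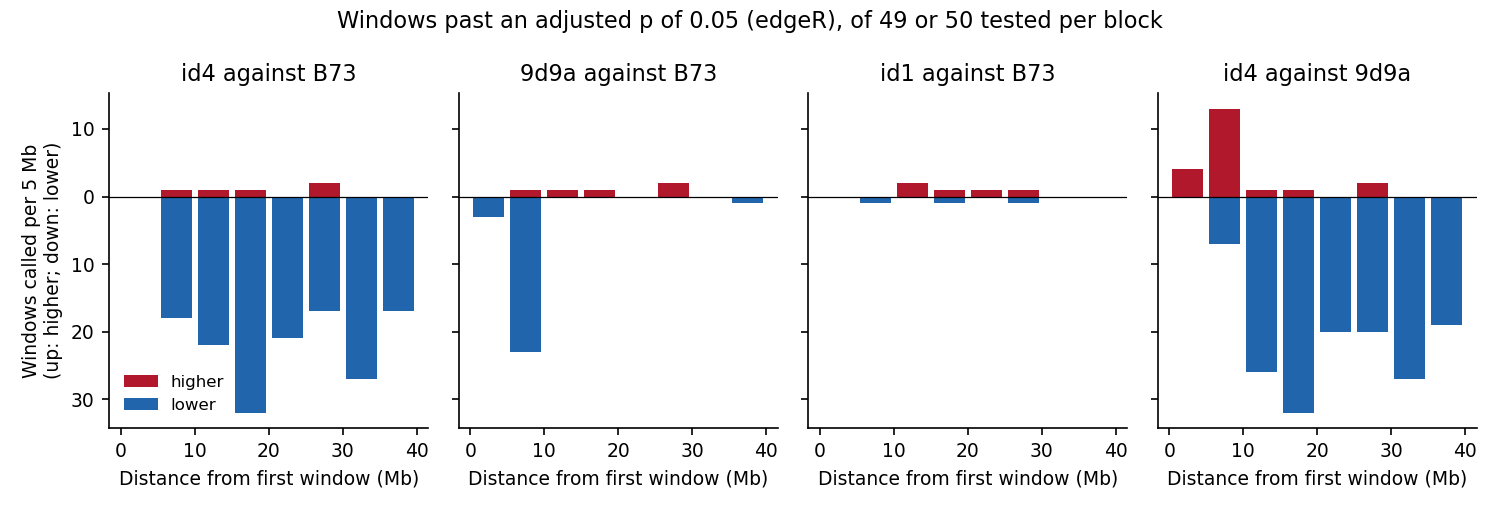
Number of 100 kb windows called by edgeR (adjusted p under 0.05) per 5 Mb of the 40 Mb, with higher windows drawn upward and lower windows downward, for 4 comparisons. For id4 against B73 lower windows fill every block from 5 Mb on (17 to 32 of 49 or 50), for 9d9a against B73 they lie in the first 2 blocks apart from 1 window, and id1 against B73 has 3.

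Along the arm the id4 level was below B73 in stretches separated by bins that missed the threshold used here, only some of them near the B73 level. In bins of 1 Mb, the median log2 ratio of id4 to B73 was -0.3 or less in both leaf and root in 21 of the 40 bins, which form 9 runs. The longest run covered 14 to 21 Mb, where the lowest bin reached -0.99 in leaf and -0.96 in root. Other runs of more than 1 bin covered 11 to 13, 28 to 30, 31 to 34 and 36 to 39 Mb. The lowest bin of the run at 31 to 34 Mb stood at -0.74 in leaf and -0.81 in root, and that of the run at 36 to 39 Mb at -0.78 in leaf and -0.80 in root. Single bins met the threshold at 7, 9, 22 and 24 Mb. The breaks between runs depend on the threshold: at -0.2 the bins from 9 to 21 Mb form 1 run of 12 Mb. The bin at 10 to 11 Mb, which lay between runs, stood at -0.32 in leaf and -0.28 in root. In root all 31 bins of id4 from 9 to 40 Mb were below 0, and in leaf 28 were. At the ends the bins lay near B73: the 4 bins from 0 to 4 Mb lay between -0.04 and 0.13 in id4, and the 5 bins beyond the segment, from 40 to 45 Mb, between -0.14 and 0.11. Still, 4 of the 50 windows tested from 40 to 45 Mb fell in id4 against B73 (edgeR) and 0 rose. That is 8% lower, where 3.09% were lower over the genome, so 40 Mb was not shown to be an edge. No bin of id1 (-0.15 to 0.17), 714 (-0.12 to 0.30) or 714H (-0.12 to 0.17) was at -0.3 or less. The outlines in leaf and root are separate libraries of each line, but a run needs both tissues by definition. Runs therefore cannot show that the tissues agree. Counted singly, id4 had 22 bins at -0.3 or less in leaf and 22 in root, and 21 were in both.

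**Figure D3:**
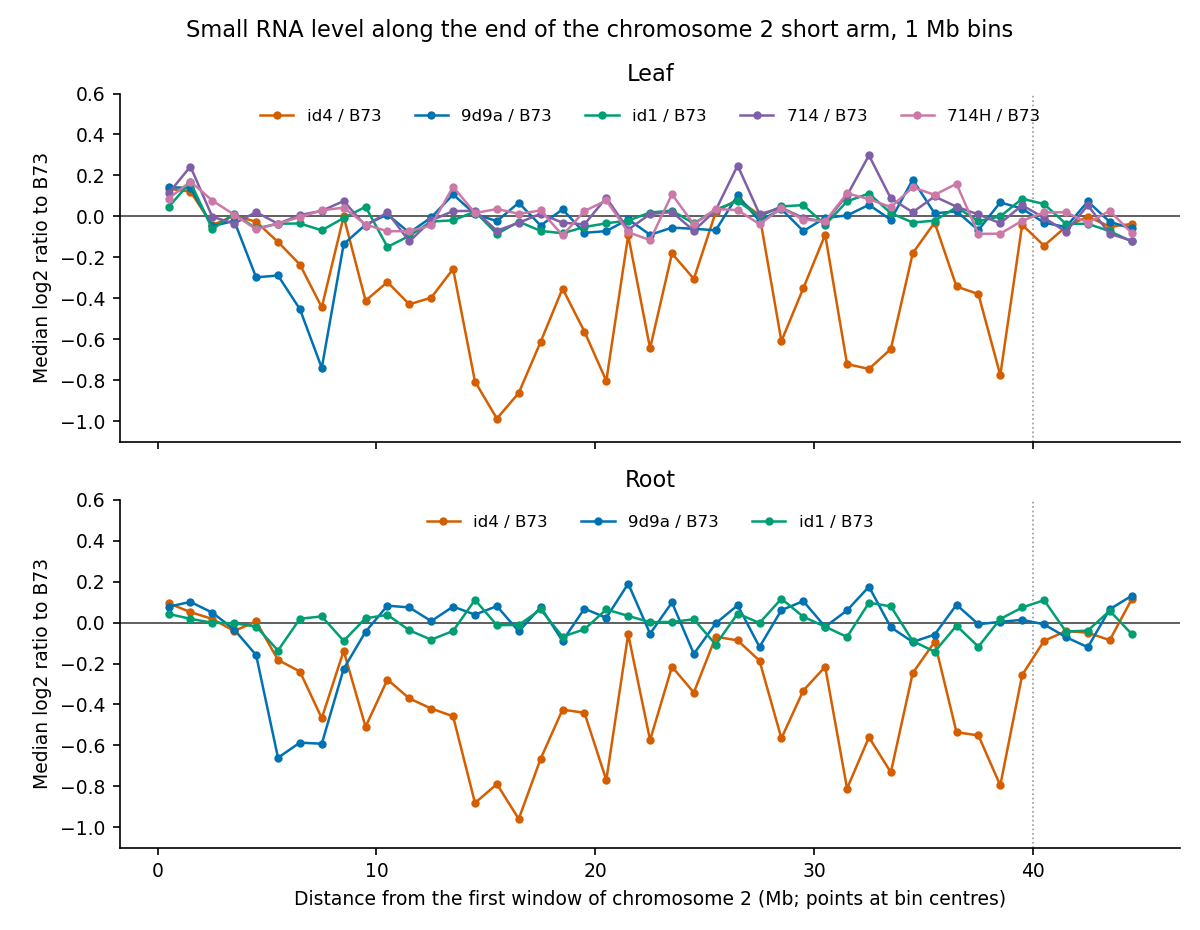
Median log2 ratio of each line to B73 of the same tissue in 1 Mb bins, against distance from the first window of chromosome 2, with leaf above and root below. The dotted line marks 40 Mb, id4 is at -0.3 or less in both tissues in 21 bins, and 9d9a is so in the 2 bins from 6 to 8 Mb.

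The 5 Mb blocks, tested with limma on the median log2(CPM + 1) of their windows and adjusted over 412 blocks of the genome, placed the strongest change in the middle of the segment. Of the 8 blocks, 4 fell in id4 against B73 and none rose, where 4.61% of blocks over the genome were lower and 0.728% were higher. The block at 15 to 20 Mb had medians of 5.22 in id4 leaf and 5.24 in id4 root, against 5.86 in B73 leaf and 6.001 in B73 root, a change of -0.70 ± 0.06 (SE; limma adjusted p = 2.48e-05), and 32 of its 50 windows fell. In id1 the same block had 5.92 in leaf and 6.01 in root, and in 9d9a 5.87 and 6.05, so id4 lay below the 3 other lines in both tissues. The block at 30 to 35 Mb changed by -0.59 ± 0.06 (limma adjusted p = 0.000116), with 27 of 49 windows lower. The block at 5 to 10 Mb changed by -0.36 ± 0.07 (limma adjusted p = 0.0118), with 18 windows lower, and that at 20 to 25 Mb by -0.33 ± 0.09 (limma adjusted p = 0.0497), with 21 lower.

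The other blocks did not pass in this test, although 3 of them held 17 or more lower windows. The change was -0.23 ± 0.07 at 10 to 15 Mb (limma adjusted p = 0.0923, 22 windows lower) and -0.23 ± 0.06 at 35 to 40 Mb (limma adjusted p = 0.0522, 17 lower). It was -0.17 ± 0.08 at 25 to 30 Mb (limma adjusted p = 0.33), where 17 windows fell and 2 rose. The block at 0 to 5 Mb stood apart with no window called and a change of 0.01 ± 0.06 (limma adjusted p = 0.95). Without B73 leaf, or without id4 root, the calls at 5 to 10 and 20 to 25 Mb were lost and 2 blocks passed. The call at 20 to 25 Mb was also lost in most other alternatives, while those at 15 to 20 and 30 to 35 Mb passed in every alternative run. Other settings added calls: 6 blocks fell when edgeR was run on block sums, with 10 to 15 and 35 to 40 Mb among them. The block at 35 to 40 Mb also passed with no filter on windows, and that at 10 to 15 Mb without B73 root.

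The 10 windows that fell most in id4 lay in the stretches at 14 to 21, 31 to 34 and 36 to 39 Mb. By start, they were at 14.8, 15.6, 16.2, 17.9, 18.0, 20.2, 31.0, 33.6, 37.4 and 38.4 Mb. At 18.0 Mb, leaf levels were 43.8 CPM in id4, 109 CPM in 9d9a, 106 CPM in id1, 110 CPM in 714, 107 CPM in 714H and 114 CPM in B73. Root levels there were 27.8 CPM in id4, 80.6 CPM in 9d9a, 82.7 CPM in id1 and 89.6 CPM in B73. Only id4 was low, and the other 8 libraries spanned 80.6 to 114 CPM. The log2 change against B73 was -1.53 ± 0.10 (SE; edgeR adjusted p = 8.62e-08).

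The window at 14.8 Mb was read more often. Its leaf levels were 78.6 CPM in id4, 195 CPM in 9d9a, 203 CPM in id1, 217 CPM in 714, 221 CPM in 714H and 178 CPM in B73. In root it had 73.2 CPM in id4, 219 CPM in 9d9a, 262 CPM in id1 and 239 CPM in B73. Again both id4 libraries were below all others, with a log2 change of -1.45 ± 0.11 (edgeR adjusted p = 4.68e-07). The window at 37.4 Mb had 56.6 CPM in id4, 119 CPM in 9d9a, 131 CPM in id1, 140 CPM in 714, 132 CPM in 714H and 141 CPM in B73 in leaf. Its root levels were 70.04 CPM in id4, 131 CPM in 9d9a, 179 CPM in id1 and 199 CPM in B73. Here 9d9a was also the lowest of the remaining lines in both tissues, and both changes passed: -1.42 ± 0.10 in id4 (edgeR adjusted p = 9.21e-08) and -0.38 ± 0.09 in 9d9a (edgeR adjusted p = 0.0239).

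In the other 7 windows id4 was likewise the lowest library of each tissue, with log2 changes from -1.44 at 20.2 Mb to -1.28 at 15.6 Mb. The weakest evidence was at 17.9 Mb, where leaf held 72.4 CPM in id4 and 188 to 237 CPM in the other 5 lines, and root held 60.4 CPM in id4, 198 CPM in 9d9a, 129 CPM in id1 and 125 CPM in B73. Its change of -1.41 ± 0.21 (edgeR adjusted p = 0.0137) did not pass without either id4 library. At 20.2 Mb the id4 levels, 5.30 CPM in leaf and 4.67 CPM in root, rest on 50 and 51 reads. All 10 windows also fell in id4 against id1 and in id4 against 9d9a. They were picked by their fall in id4 in the same fit, and these contrasts reuse the id4 libraries, so this is no separate support.

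**Figure D4:**
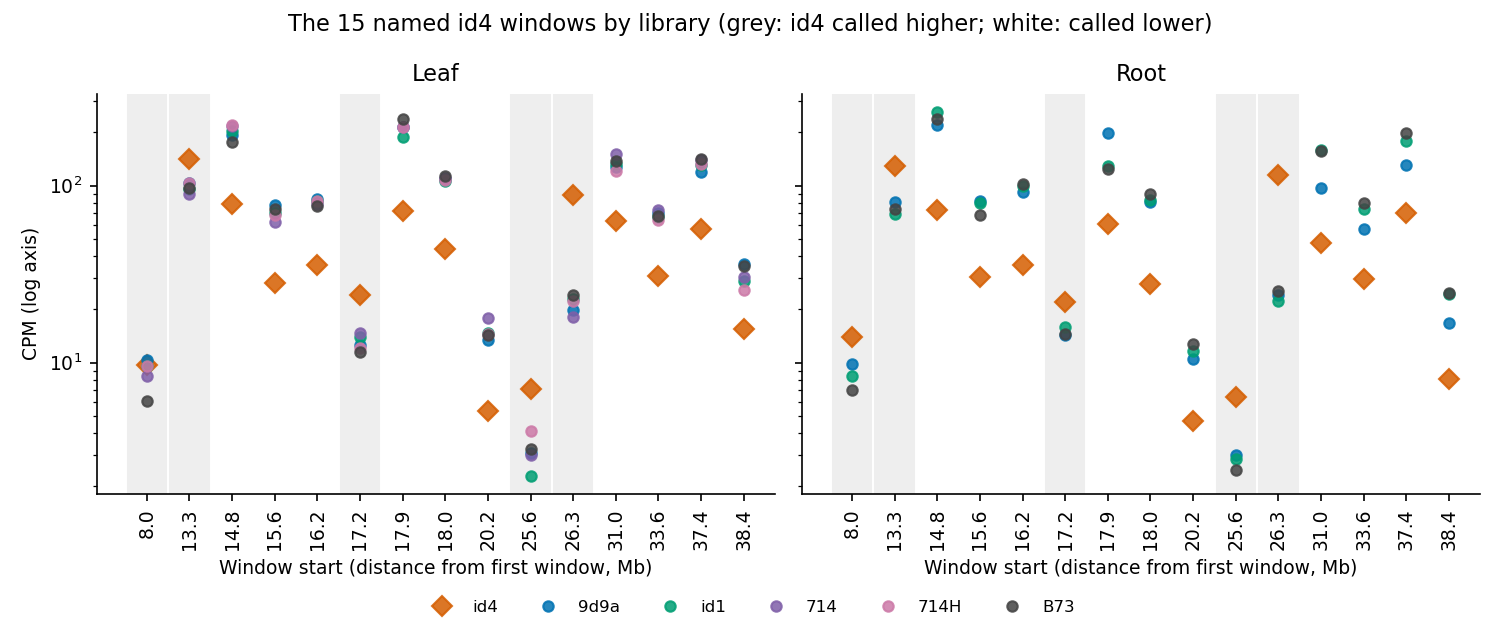
Level in CPM (log axis) of the 10 windows that fell most and the 5 that rose in id4 against B73, with 1 point per library, leaf at left and root at right, and the windows that rose shaded. The id4 diamond is the lowest point of its tissue in the 10 unshaded windows and the highest in the shaded ones, except at 8.0 Mb in leaf.

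Of the 5 windows that rose in id4, 1 stood far above the rest. At 26.3 Mb, leaf levels were 88.4 CPM in id4, 19.9 CPM in 9d9a, 23.0 CPM in id1, 18.1 CPM in 714, 22.2 CPM in 714H and 24.2 CPM in B73. Root levels there were 115 CPM in id4, 24 CPM in 9d9a, 22.3 CPM in id1 and 25.2 CPM in B73. The 2 id4 libraries lay above the 8 others without overlap, and the log2 change was 2.02 ± 0.12 (edgeR adjusted p = 3.08e-08), the only one beyond 4-fold in either direction. It lies between the low stretches, in bins where the id4 median was near B73. The window at 17.2 Mb (0.83) rose inside the longest low run and did not pass without id4 leaf. The window at 13.3 Mb (0.67) rose next to it, where id4 had 142 CPM in leaf and 130 CPM in root, against 97.2 and 74.3 CPM in B73. The window at 25.6 Mb (1.21) rests on 67 and 70 id4 reads and did not pass without B73 root, which left 3 windows higher. At 8.0 Mb (0.86) B73 was the low library, with 9.65 CPM in id4 leaf, 8.35 to 10.4 CPM in the 4 other p1-allele lines and 6.03 CPM in B73, and id4 did not pass there against id1 or 9d9a.

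The same windows can be set against lines other than B73. In id4 against id1, 160 windows of the 40 Mb fell and 5 rose, where 2.89% were lower and 3.51% higher over the genome (edgeR). In id4 against 9d9a, 151 fell and 21 rose, where 2.93% were lower and 3.16% higher. Left out singly, id1 root moved the 5 to 3, id4 root moved the 21 to 13 and 9d9a root moved the 21 to 12. These contrasts share the id4 libraries with the one against B73 and are not independent of it. The block at 15 to 20 Mb changed by -0.74 ± 0.06 against id1 (limma adjusted p = 8.31e-06) and by -0.73 ± 0.06 against 9d9a (limma adjusted p = 6.13e-06). In all, 5 blocks fell against id1 (genome 2.91% lower and 5.34% higher) and 4 against 9d9a (genome 3.64% lower). Against id1, 3 blocks fell without B73 leaf or id1 leaf and 2 without id1 root or id4 root, and against 9d9a 2 fell without id1 root, id4 root or 9d9a root.

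Comparing every pair of libraries of a tissue shows which line differs from which without naming any as the control. From 9 to 40 Mb, the median absolute log2 difference over windows was 0.409 to 0.445 in the 5 leaf pairs that include id4 and 0.0861 to 0.149 in the 10 leaf pairs without it. In root it was 0.481 to 0.514 in the 3 pairs with id4 and 0.114 to 0.167 in the 3 without. Outside the 40 Mb, pairs with id4 differed by 0.134 to 0.179 in leaf and 0.156 to 0.181 in root, within or near the range of pairs without it (0.116 to 0.182 in leaf and 0.145 to 0.196 in root). In this stretch every pair with id4 therefore differed more than every pair of the same tissue without it. From 0 to 4 Mb, leaf pairs of any 2 lines differed by 0.0693 to 0.169. These stretches were set after the values were seen and carry no test.

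The size of the id4 difference moved with how much small RNA a window had. With the 310 windows from 9 to 40 Mb split into 3 classes by their level in id1 of the same tissue, the median log2 ratio of id4 to B73 in leaf was -0.26 in the low class, -0.38 in the middle class and -0.54 in the high class. In root it was -0.22 in the low class, -0.50 in the middle class and -0.60 in the high class. The ratios are on the log2(CPM + 1) scale, which understates changes of windows with few reads, and the part of that in the order of the classes was not tested. In the high class of leaf 19 of 104 windows were at -1 or less, and in that of root 23 of 104.

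The line 9d9a fell over a short stretch near the end of the arm. Of the 399 windows, 27 fell in 9d9a against B73 and 5 rose (edgeR), where 3.08% were lower and 1.54% higher over the genome. All but the window at 37.4 Mb lay between the one at 4.3 Mb and the one at 9.1 Mb, 3 of them in the first block and 23 in the block at 5 to 10 Mb. Their median log2 change over the 27 was -0.67 and 7 fell by more than 2-fold. Without the root library of 9d9a 15 windows fell and 2 rose, and without B73 leaf 3 rose. The block at 5 to 10 Mb had medians of 5.52 in 9d9a leaf and 5.63 in 9d9a root, against 6.22 in B73 in both tissues. Its change of -0.65 ± 0.07 passed (limma adjusted p = 8.01e-05; 4.37% of blocks lower and 1.46% higher over the genome), and no other of the 8 blocks did.

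The windows that fell most in 9d9a were at 9.0, 7.3, 7.6, 8.9 and 8.8 Mb. At 7.3 Mb, leaf levels were 14.2 CPM in 9d9a, 25.5 CPM in id4, 32.4 CPM in id1, 30.0 CPM in 714, 30.6 CPM in 714H and 35.3 CPM in B73. Root levels there were 9.83 CPM in 9d9a, 21.4 CPM in id4, 31.3 CPM in id1 and 40.9 CPM in B73. The order was the same in both tissues, with 9d9a lowest and id4 next, and the 9d9a change was -1.64 ± 0.15 (edgeR adjusted p = 2.16e-06). At 8.9 Mb, leaf levels were 37.7 CPM in 9d9a, 89.6 CPM in id4, 72.3 CPM in id1, 88.7 CPM in 714, 85.04 CPM in 714H and 86.0 CPM in B73. Root levels were 45.2 CPM in 9d9a, 97.1 CPM in id4, 104 CPM in id1 and 106 CPM in B73. There 9d9a alone was low, with a change of -1.17 ± 0.11 (edgeR adjusted p = 1.57e-06).

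**Figure D5:**
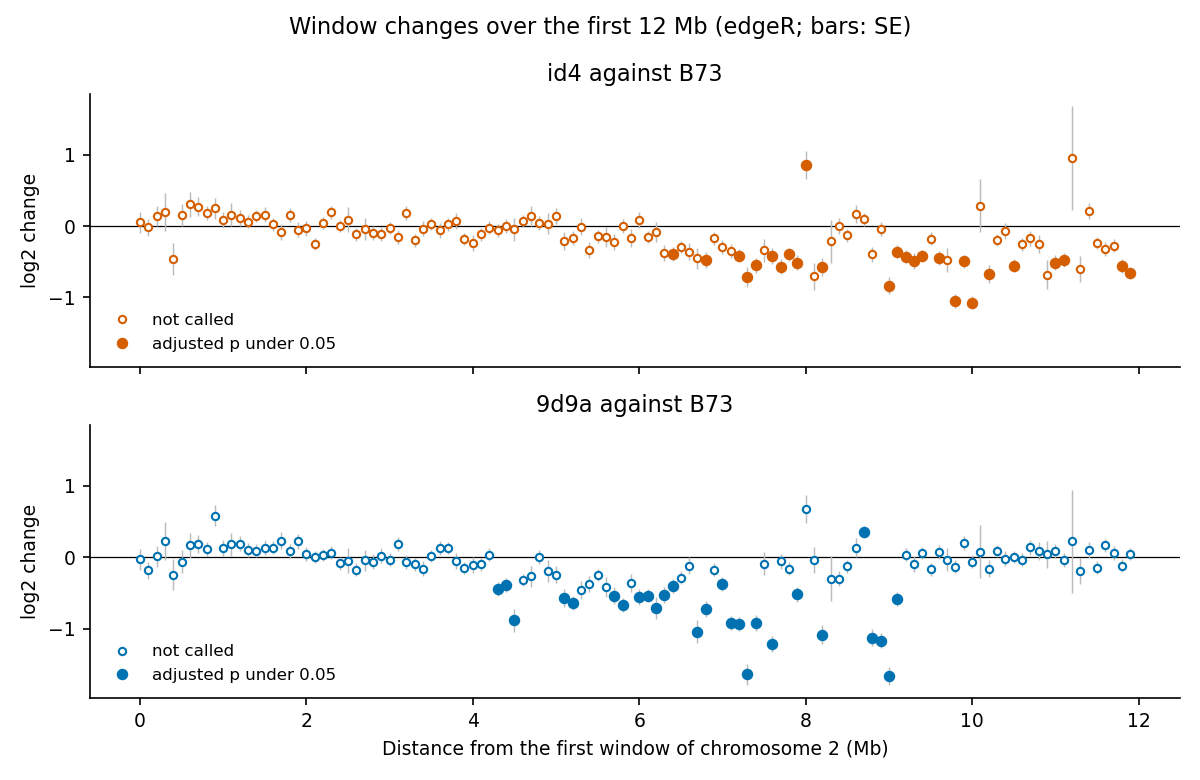
Log2 change of single 100 kb windows over the first 12 Mb, for id4 against B73 above and 9d9a against B73 below, with bars of 1 SE from edgeR and filled points for an adjusted p under 0.05. Windows of 9d9a that fell start at 4.3 Mb and end at 9.1 Mb, while those of id4 start at 6.4 Mb and go on past the right edge.

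In the block at 5 to 10 Mb, which held lower windows of both lines, the median of 9d9a went lower than that of id4. The block is wider than the shared part: lower windows of id4 start at 6.4 Mb, and this stretch of 9d9a ends at 9.1 Mb. In id4 against 9d9a the block at 5 to 10 Mb was higher in id4 by 0.29 ± 0.07 (limma adjusted p = 0.028, where 4.61% of blocks were higher over the genome), with 13 windows higher and 7 lower. This call did not hold without B73 leaf, id4 leaf or either 9d9a library. From 5 to 8 Mb, leaf pairs of 9d9a with a line other than id4 differed by a median of 0.346 to 0.438. Leaf pairs of id4 with a line other than 9d9a differed by 0.235 to 0.296, and id4 with 9d9a by 0.273. Pairs among id1, 714, 714H and B73 differed by 0.0686 to 0.140. In root, pairs of 9d9a with id1 or B73 differed by 0.511 to 0.613, and pairs of id4 with B73 or id1 by 0.253 to 0.313. There id4 differed from 9d9a by 0.438, and id1 from B73 by 0.119. Both lines were thus apart from the others there, by different amounts. The stretch from 5 to 8 Mb was set after the values were seen and carries no test. It is the run of bins where 9d9a was at -0.2 or less in both tissues, so a difference of 9d9a there was built in. Its part before 6.4 Mb held no lower window of id4 against B73.

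The few windows that rose in 9d9a were scattered. They were at 25.1 Mb (1.38, on 41 and 44 reads of 9d9a), 13.1 Mb (0.93), 26.5 Mb (0.67), 16.1 Mb (0.46) and 8.7 Mb (0.35). At 16.1 Mb, 9d9a had 84.9 CPM in leaf and 79.9 CPM in root, while id4 had 29.0 and 28.4 CPM, against 59.4 and 64.2 CPM in B73. The 2 lines thus lay on opposite sides of B73 in this window. The change in 9d9a at 16.1 Mb was 0.46 ± 0.10 (edgeR adjusted p = 0.00895).

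In id1 few windows were called. Of the 399 windows 3 fell and 5 rose in id1 against B73 (edgeR), where 3.58% were lower and 1.94% higher over the genome, and no block passed (limma; 4.61% lower and 1.21% higher over the genome). The windows that rose most were at 17.4, 13.1 and 11.9 Mb. At 17.4 Mb, leaf levels were 110 CPM in id1, 136 CPM in 714, 108 CPM in 714H, 37.2 CPM in id4, 47.1 CPM in 9d9a and 51.6 CPM in B73. Root levels were 136 CPM in id1, 35.5 CPM in id4, 49.2 CPM in 9d9a and 60.4 CPM in B73. The libraries of id1, 714 and 714H were high and the rest low, and the id1 change was 1.13 ± 0.10 (edgeR adjusted p = 8.03e-07). In the same window id4 fell against B73, by 0.62 on the log2 scale (edgeR adjusted p = 0.00161).

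At 11.9 Mb the same lines were high, with 248 CPM in id1, 282 CPM in 714 and 210 CPM in 714H, against 154 CPM in B73 in leaf, and 267 CPM in id1 root against 174 CPM in B73 root. The id1 change there was 0.65 ± 0.08 (edgeR adjusted p = 5.61e-05). At 13.1 Mb 9d9a joined them: leaf had 64.3 CPM in id1, 58.9 CPM in 9d9a, 54.8 CPM in 714, 63.7 CPM in 714H, 20.7 CPM in id4 and 31.4 CPM in B73. Root had 89.5 CPM in id1, 83.0 CPM in 9d9a, 27.2 CPM in id4 and 45.4 CPM in B73. The change was 1.005 ± 0.10 in id1 (edgeR adjusted p = 2.63e-06) and 0.93 ± 0.10 in 9d9a (edgeR adjusted p = 1.19e-05), and id4, the lowest line, fell against B73 by 0.68 on the log2 scale (edgeR adjusted p = 0.000732). The windows that fell in id1 were at 17.7 Mb (-0.64), 29.1 Mb (-0.50) and 9.0 Mb (-0.45), and each call was lost without id1 leaf. Without id1 leaf or B73 root 1 window fell and 3 rose, and without id1 root 1 fell.

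Few windows followed the copies of the 714 allele. A slope per copy was fitted over the 6 leaf libraries, counting 2 copies for 714, 1 for 714H and 0 for the 4 remaining lines. It passed at 1 of 399 windows, which was higher, where 0.639% were higher and 1.71% lower over the genome (edgeR). That window, at 9.5 Mb, had 207 CPM in 714, 184 CPM in 714H, 151 CPM in id4, 143 CPM in 9d9a, 161 CPM in id1 and 155 CPM in B73. The level followed the copies, but the slope of 0.22 ± 0.04 on the log2 scale (edgeR adjusted p = 0.0451) did not pass with B73, 714H and 714 alone, nor when 1 leaf library other than 714H was left out. Without 714H leaf 3 windows were higher, and without id4 leaf or 9d9a leaf 1 was lower. No 5 Mb block had a slope that passed (limma; 0% higher and 1.94% lower over the genome). The median slope over the 399 windows was 0.06 and that over all windows 0.00. The median over the 399 was 0.02 without id4 leaf and 0.11 without 714 leaf.

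Leaf and root gave similar shares of their reads to the 40 Mb. The share averaged 2.99% ± 0.314 in leaf and 2.99% ± 0.351 in root (SD, n = 4 lines each), a difference of 0.00220 percentage points (exact two-sided permutation p = 1, smallest possible 0.0286). Single windows did differ: 30 were higher and 37 lower in leaf than in root (edgeR over the 4 lines), where 11.3% were higher and 13.9% lower over the genome, against 7.52% and 9.27% here. All 67 had the same direction in the 4 lines, which the test favours because the lines serve as its replicates. With line as a replicate block, 70 were higher and 100 lower, which is 17.5% and 25.1% here where 17.7% were higher and 19.8% lower over the genome. Whether fewer or more windows than over the genome were lower in leaf thus turned with the block. It also turned without id4, with 57 lower (14.3% here and 12.2% over the genome). Without B73 13 were higher and 18 lower, and without id1 18 higher and 19 lower. Of the blocks, those at 0 to 5 Mb (-0.13 ± 0.04; limma adjusted p = 0.0491) and 30 to 35 Mb (-0.15 ± 0.04; limma adjusted p = 0.0353) were lower in leaf (12.1% lower and 11.9% higher over the genome), and neither passed without B73 leaf, id1 leaf, 9d9a leaf, id1 root or 9d9a root. Without either id4 library 1 of them passed.

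The window with the smallest adjusted p between tissues was at 13.5 Mb. There leaf had 221 CPM in id4, 258 CPM in 9d9a, 245 CPM in id1 and 253 CPM in B73, and root had 127 CPM in id4, 151 CPM in 9d9a, 158 CPM in id1 and 158 CPM in B73. Leaf exceeded root in every line without overlap, with a log2 change of 0.69 ± 0.09 (edgeR adjusted p = 0.000404), and 714 and 714H leaf, which took no part in that test, had 246 and 280 CPM. At 35.9 Mb leaf had 11.9 CPM in id4, 10.2 CPM in 9d9a, 13.7 CPM in id1 and 12.7 CPM in B73, against 17.6, 23.9, 25.04 and 23.8 CPM in root of the same lines, a change of -0.92 ± 0.14 (edgeR adjusted p = 0.00102). Of the 30 windows higher in leaf, the others among the 5 with the largest changes were at 34.1 Mb (1.07, on 5 to 25 reads per library), 26.0 Mb (1.04), 8.3 Mb (0.95) and 0.6 Mb (0.62). Of the 37 lower in leaf, the 5 with the largest changes were that at 35.9 Mb and those at 9.0 Mb (-1.83), 0.4 Mb (-0.997), 20.8 Mb (-0.80) and 38.2 Mb (-0.79).

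Line and tissue met in the window at 9.0 Mb. Leaf levels were 63.6 CPM in id4, 36.5 CPM in 9d9a, 68.6 CPM in id1, 63.4 CPM in 714, 56.8 CPM in 714H and 99.1 CPM in B73. Root levels were 189 CPM in id4, 98.9 CPM in 9d9a, 286 CPM in id1 and 376 CPM in B73. Within each line root was above leaf, and within each tissue 9d9a was the lowest and B73 the highest. The window fell in 9d9a (-1.66 ± 0.12; edgeR adjusted p = 3.07e-07), in id4 (-0.83 ± 0.12; edgeR adjusted p = 0.00029) and in id1 (-0.45 ± 0.11; edgeR adjusted p = 0.0301) against B73, and in leaf against root (-1.83 ± 0.48; edgeR adjusted p = 0.0354). The tissue call was lost without B73, id1 or id4.

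The windows with the most reads did not all follow the pattern of the stretch they lie in. At 35.3 Mb, id4 had 333 CPM in leaf and 264 CPM in root, while 456 to 740 CPM were found in the other p1-allele lines, against 560 and 570 CPM in B73. That window fell in id4 (-0.94; edgeR adjusted p = 5.3e-05). At 11.2 Mb the lines differed in both tissues. Leaf had 773 CPM in id4, 509 CPM in 9d9a, 780 CPM in id1, 456 CPM in 714, 493.4 CPM in 714H and 766 CPM in B73. Root had 492 CPM in id4, 268 CPM in 9d9a, 130 CPM in id1 and 133 CPM in B73. So id4 was with B73 in leaf and far above it in root, a pattern that the test of shared line effects does not address. At 27.8 Mb, the most read window, leaf ranged from 434 CPM in id4 to 985 CPM in B73, and root had 586 CPM in id4, 1196 CPM in 9d9a, 618 CPM in id1 and 571 CPM in B73. At 29.6 Mb, in the low run of id4 at 28 to 30 Mb, leaf had 448 CPM in id4 and 401 to 489 CPM in the other lines. Root there had 339 CPM in id4, 362 CPM in 9d9a, 175 CPM in id1 and 186 CPM in B73, and no line comparison was called. At 1.9 Mb, where no line comparison was called, levels were 402 to 468 CPM in leaf and 432 to 566 CPM in root.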

How the data were processed

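The deposited files hold counts, whole-number reads per 100 kb window and library, as the file headers and values show; the authors applied no normalisation that the files show. The submitters' processing notes name Bowtie; the sources used here give no version, settings, genome build, read lengths or rule for reads with several matches. Per the labels' protocols, PureLink reagent and a DNase step gave the total RNA. A read is counted where it matches 1 reference, so a lower small RNA level in a line and a poorer match of its sequence to that reference cannot be told apart in these counts. Windows were not placed in genes.

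Windows not listed in a file were taken as 0, positions were read as window starts, and CPM are counts per 1000000 reads of a file. All windows of the genome were tested with edgeR 4.0.16 (R 4.3.3; TMM, filterByExpr, robust quasi-likelihood) and Benjamini-Hochberg adjustment at 0.05. The SE of a log2 change comes from the F statistic and can be smaller than counting error where reads are few. The line model (tissue plus line, 8 libraries, 3 residual degrees of freedom) had a common biological coefficient of variation of 0.0841, leaf against root (6 degrees of freedom) 0.183 and the 714 slope (4 degrees of freedom) 0.161. Blocks of 5 Mb were tested with limma 3.58.1 on the median log2(CPM + 1), with TMM-adjusted library sizes, of windows averaging 5 counts or more, in blocks with at least 20 such windows; tissue was a covariate for lines, and line for leaf against root. The 3 comparisons with B73 share its libraries. Since the labels name no separate plants or pools, p-values cover the spread between these libraries, which may be technical. In the line model that spread is how far line differences varied between leaf and root. It is not a spread between replicates, and tissue-dependent and technical parts of it cannot be told apart. Deviations from tissue means correlated positively between leaf and root of 1 line (r of 0.553 to 0.791 over windows), so line pairs the tissues. Between lines r was -0.482 to 0.001, and deviations from a shared mean lean to negative values between lines. The closest libraries, 714 and 714H leaf, differed with a chi-square per degree of freedom of 5.4, so no pair agreed within sampling noise.

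Named windows were those past the threshold with 1 direction in both tissues (or all 4 lines): the 10 that fell and rose most in id4, 5 each for the other tests, and the 5 with most reads. The windows, lists and tests were chosen with earlier results of these data known. Alternatives were library totals, no filter, DESeq2 1.42.0, another pseudocount, block sums, leaving out each library, and line as a replicate block. Scripts were tested on simulated counts. Python 3.11.15 drew the figures.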

Additional observations from a re-analysis of the deposited data

Results flagged for a closer look

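In 7 of 38 groups of 4 lines looked at (chance alone gives about 1 in 20 for independent groups) the lowest library lay far from the rest, and it was id4 each time. The groups reuse the block medians and windows described above, and leaf and root share lines. They are thus not independent, and their number adds no test. In leaf, the median log2(CPM + 1) of id4 was 5.22 in the block at 15 to 20 Mb (9d9a, id1 and B73 5.86 to 5.92), 4.96 at 30 to 35 Mb (5.41 to 5.48) and 5.03 at 35 to 40 Mb (5.24 to 5.28). In root it was 5.24 at 15 to 20 Mb (6 to 6.05), 5.09 at 20 to 25 Mb (5.58 to 5.61) and 5.01 at 30 to 35 Mb (5.63 to 5.66). The seventh group was the window at 35.9 Mb in root, with 17.6 CPM in id4 and 23.8 to 25 CPM in the other lines.

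In 7 of 24 combinations of line and block the difference from B73 in median log2(CPM + 1) had opposite signs in leaf and root, and that contrast between tissues was not tested. At 0 to 5 Mb it was -0.0325 in leaf and 0.0495 in root for id4, -0.0799 and 0.00045 for id1, and -0.0605 and 0.0658 for 9d9a. For id1 it was also -0.161 and 0.0852 at 5 to 10 Mb, -0.0856 and 0.0754 at 10 to 15 Mb, and 0.00237 and -0.0324 at 30 to 35 Mb. For 9d9a it was -0.0991 and 0.146 at 10 to 15 Mb. None of these lines passed the block test against B73 in these blocks.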

How the results depend on the processing

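The lower windows of id4 numbered 110 to 156 when 1 library was left out (154 with all), and stayed within 1.5 times that number under library totals, DESeq2 and no filter. Named windows kept their side of the threshold under every alternative in 11 of 15 cases for id4, 6 of 10 for 9d9a, 3 of 8 for id1, 4 of 10 for leaf against root and 0 of 1 for the slope, and none changed sign.

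With 1 library left out, higher windows in id4 against B73 numbered 3 to 6, lower and higher windows in id1 1 to 4 and 3 to 5, and in 9d9a 15 to 27 and 2 to 7. Higher windows numbered 3 to 7 in id4 against id1 and 12 to 25 against 9d9a. Lower blocks numbered 2 to 4 in id4 against B73, 2 to 6 against id1 and 2 to 5 against 9d9a, where 0 to 1 were higher. With 1 line left out, leaf against root had 18 to 57 lower and 13 to 35 higher windows, and with 1 library left out 0 to 2 lower blocks. The slope had 0 to 1 lower and 0 to 3 higher windows. With line as a replicate block, leaf against root had 100 lower and 70 higher windows; without it 1 block was lower instead of 2. DESeq2 gave 5 higher windows for the slope. Lower blocks of id4 against 9d9a numbered 2 with a pseudocount of 0.25 or library totals, and its higher block was not called on edgeR block sums (0). Leaf against root had 0 lower blocks on block sums or library totals and 1 with a pseudocount of 0.25, and 1 higher block on block sums. The cause was not tested.

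The id4 block at 0 to 5 Mb, near 0, was -0.00522 on block sums and -0.0396 to 0.0525 in the leave-outs. The leaf minus root share was -0.0693 percentage points without the 5 most read windows and -0.0140 to 0.0151 with 1 line left out. Bins of 1 Mb below B73 in id4 numbered 24 at -0.2 and 11 at -0.5. Single libraries limit every line: effects in 1 tissue, and 714 against 714H, have no replicate.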
